A study of Homo sapiens with 2 samples.

Results

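The genes described here encode the RBM, SRSF and HNRNP families of RNA-binding proteins, measured on 2 arrays of hypoxic MDA-MB-231 cells. MDA-MB-231 is an established line of human breast carcinoma. They were taken by symbol from the array's probe table: protein-coding genes named RBM or SRSF with a digit, RBM with S or X, or HNRNP with a letter, with genes on chromosomes X and Y left out. Of 11916 protein-coding genes with a named transcript cluster (a group of probes read as 1 value), 65 met this rule, namely 34 RBM, 10 SRSF and 21 HNRNP genes. A further 2 genes with fitting symbols, RBM10 and RBM41, lie on X, and 13 autosomal RefSeq genes with such symbols, HNRNPD, SRSF9, SRSF10 and RBMS1 to RBMS3 among them, have no named cluster here and were not analysed.

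The cells had received either compound 1, which the study directs at the microRNA miR-544, or a miR-544 antagomir, a modified oligonucleotide made to pair with and silence the same microRNA. Treatment began 24 hours before 5 days of hypoxia at under 1% oxygen, which all cells shared. Each treatment was read on 1 array of pooled RNA; the design text speaks of 3 samples that were pooled, without saying whether this means 3 cultures for each treatment. No array of untreated, mock-treated or normoxic cells was used here, so every value below sets compound 1 against the antagomir. Both agents are directed at miR-544, which is taken here as hsa-miR-544a, since the labels name no form. Its mature sequence is shown next (RefSeq, GRCh38.p14, chr14:101048712-101048733, plus strand), with the seed, bases 2 to 8, in capitals.
hsa-miR-544a: aUUCUGCAuuuuuagcaaguuc

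Proteins of these families bind pre-mRNA as it is transcribed and help to decide which exons are kept. SR proteins (SRSF genes) carry RNA recognition motifs and a tail rich in arginine and serine, and they mostly promote exon inclusion through exonic enhancers, in a manner set by the SRPK and CLK kinases. The hnRNPs coat nascent RNA and often favour exon skipping, and they also act in mRNA export, stability and translation. RBM proteins are a mixed group named for their RNA recognition motif, with members in the spliceosome, in N6-methyladenosine (m6A) deposition, in nuclear RNA decay and in ribosome assembly. Many genes of these families regulate their own transcripts through exons that lead to decay of the message, and hypoxia is known to alter splicing in cancer cells.

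The deposited values were on a log scale, taken as log2, and each difference is compound 1 minus antagomir. A gene counted as measured where the higher of its 2 values reached 5.60, the median level of all clusters. This left 56 of the 65 members (28 RBM, 9 SRSF and 19 HNRNP genes) among 9584 measured protein-coding genes. Since each treatment has a single array, replicate error is unknown, no difference was tested and no p-value is given. A lower share of expressing cells and less RNA per cell cannot be told apart in such RNA. As a check of the cell label, VIM, CD44, MSN and AXL, markers of this mesenchymal-like line, lay above the entry level on both arrays, and the hormone receptor genes ESR1 and PGR lay below it. The endothelial marker PECAM1 and the liver marker ALB were also below it. EPCAM (7.05 and 6.91) and GATA3 (7.44 and 7.27), 2 genes listed as low in this line, were above it on the compound 1 and antagomir arrays.

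Transcripts of these RNA-binding proteins were mostly a little lower on the compound 1 array. Of the 56 measured members 49 were lower, 6 were higher and 1 had the same value on both arrays. That is 87.5% lower among the members, against 58.9% lower and 40.0% higher among all measured protein-coding genes. The median difference was -0.15 for the members, with a middle range (25th to 75th percentile) of -0.22 to -0.071. For all protein-coding genes the median was -0.041 and the middle range -0.15 to 0.076. The differences were small, and 25 members lay within 1.1-fold. The share of all protein-coding genes within that bound was not counted. Of all protein-coding genes 28.7% lay below the -0.13 of RBM19 and 20.0% above the 0.10 of RBM15B, both members within 1.1-fold. Past 1.5-fold were 0 members, where 0.365% of protein-coding genes were lower and 0.167% higher by as much. A smaller step, a log2 difference of 0.32 in either direction, served to mark the larger differences. Past it 4 members were lower and 1 was higher, as were 5.02% and 2.88% of protein-coding genes. The members' share of large differences was thus close to that of all genes, and the members differed from all genes in the centre of their distribution. After quantile normalization 41 members were lower and 15 higher, with 49.5% of all genes lower, and under cyclic loess 43 were lower and 13 higher, with 51.5% of all genes lower.

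**Figure D1:**
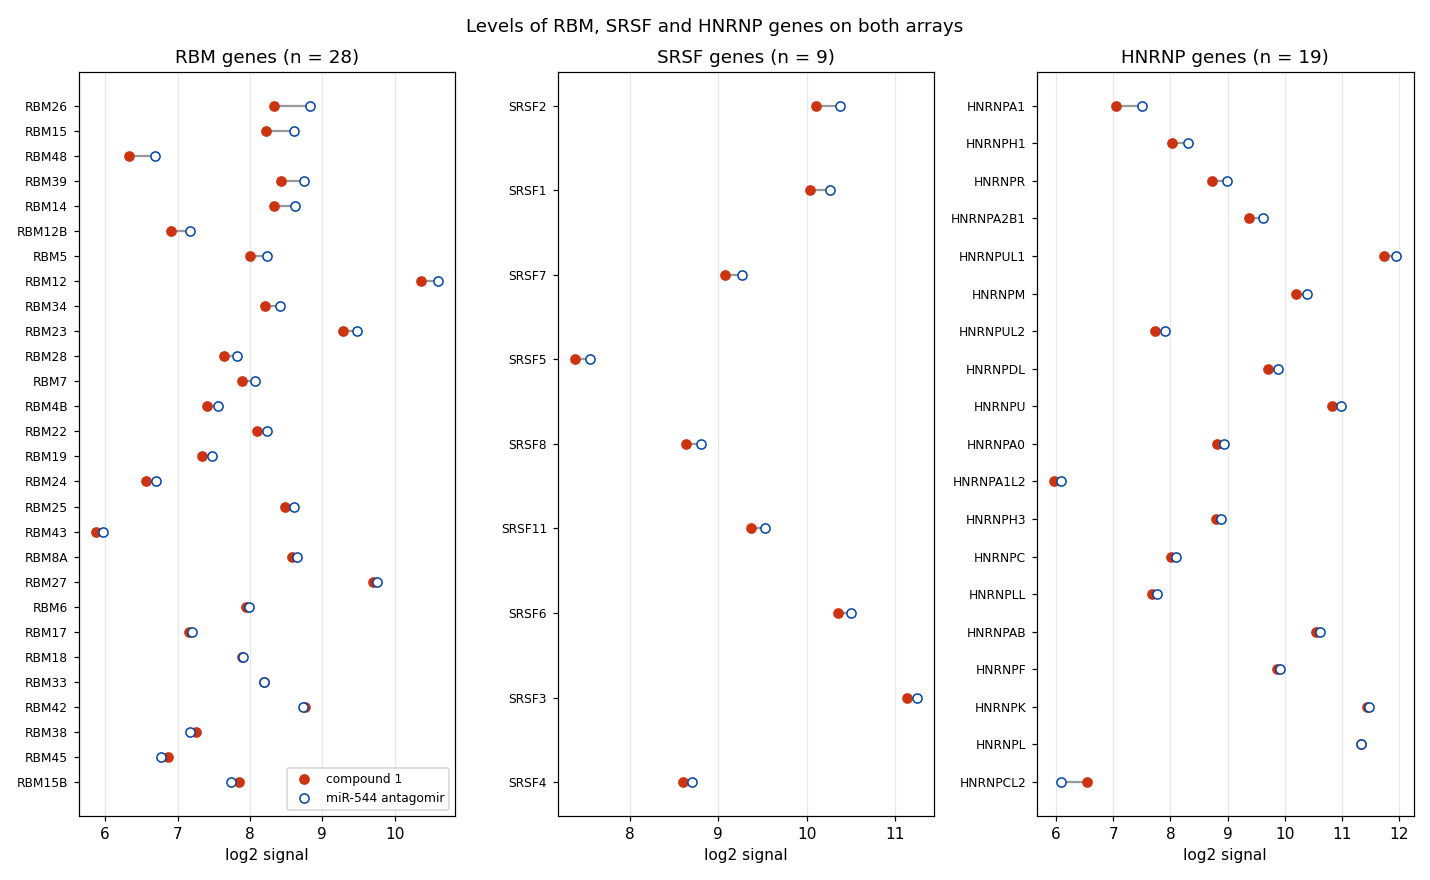
Log2 signal (x axis) of each measured member on the compound 1 array (filled red) and the antagomir array (open blue), with lines joining the 2 values, in 3 panels for 28 RBM, 9 SRSF and 19 HNRNP genes ordered by their difference. The red point lies left of the blue one in 49 of the 56 genes, and the widest gap is that of RBM26; each point is 1 array, so no error bar can be drawn.

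All 9 measured SR protein genes were lower on the compound 1 array, by 1.07-fold to 1.21-fold, with a median difference of -0.17. Of all measured protein-coding genes 58.9% were lower, with a median of -0.041. SRSF2, which binds exonic enhancers and is recurrently mutated in myeloid neoplasms, had the largest difference, with a log2 level of 10.10 with compound 1 and 10.38 with the antagomir. SRSF1, the founding SR protein and an oncogene in breast epithelium, was at 10.04 with compound 1 and 10.26 with the antagomir, a difference of -0.22. SRSF7, which shuttles between nucleus and cytoplasm and carries a zinc knuckle, was at 9.07 with compound 1 and 9.27 with the antagomir, a difference of -0.20. For these 3 genes and for SRSF5 the antagomir array was the higher one by more than the median of the family.

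SRSF5, which belongs with SRSF4 and SRSF6 to the SR proteins with a pair of RNA recognition motifs, was at 7.38 with compound 1 and 7.56 with the antagomir (-0.18). SRSF6 was at 10.36 with compound 1 and 10.50 with the antagomir (-0.14), and SRSF4 at 8.61 with compound 1 and 8.70 with the antagomir, the smallest difference of the family at -0.097. SRSF8, a close relative of SRSF2, was at 8.64 with compound 1 and 8.80 with the antagomir (-0.17). SRSF11, an SR-related protein, was at 9.37 with compound 1 and 9.53 with the antagomir (-0.16). SRSF3, which like SRSF7 links mRNA to its export, was at 11.14 with compound 1 and 11.25 with the antagomir (-0.11). All 9 were also lower after centring, quantile normalization and cyclic loess, with medians of -0.20, -0.098 and -0.10. Of all protein-coding genes 66.3%, 49.5% and 51.5% were lower under these scalings, in the same order. None of these 9 measured genes differed by more than 0.32 under any of these scalings. The tenth member, SRSF12, was below the entry level on both arrays, at 3.26 with compound 1 and 2.91 with the antagomir. Its difference of 0.35 was thus opposite in sign and past 0.32.

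Among the HNRNP genes 17 of 19 were lower on the compound 1 array, with a median difference of -0.12, against 58.9% of all protein-coding genes. HNRNPA1, whose protein represses splice sites and binds exonic silencers, had the lowest difference of the family, at 7.05 with compound 1 and 7.50 with the antagomir (1.37-fold, -0.45). This gene has many processed copies in the genome, and how far its probes also read those copies is not known from the files. The 2 clusters named for its copy HNRNPA1P10 had differences of -0.21 and -0.040. The first was at 11.51 with compound 1 and 11.71 with the antagomir, the second at 7.87 and 7.91. HNRNPA2B1, a relative that also binds m6A-marked RNA, was at 9.38 with compound 1 and 9.63 with the antagomir (-0.24). The other genes of the A and B type, HNRNPDL (-0.17), HNRNPA0 (-0.12), HNRNPA1L2 (-0.11) and HNRNPAB (-0.064), were lower by less, and HNRNPAB turned to 0.016 with quantile normalization and 0.0088 with cyclic loess.

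HNRNPH1, which binds runs of guanine near splice sites, was at 8.03 with compound 1 and 8.30 with the antagomir (-0.28). Its relatives HNRNPH3 (-0.089) and HNRNPF (-0.047) differed less, and HNRNPF was at 0.033 with quantile normalization and 0.026 with cyclic loess. HNRNPR, which binds the 7SK RNA and neuronal mRNAs, was at 8.73 with compound 1 and 8.99 with the antagomir (-0.27). HNRNPUL1, which has roles in transcription and DNA end resection, was at 11.74 with compound 1 and 11.96 with the antagomir (-0.22), close to its relative HNRNPUL2 at -0.19. HNRNPM, a regulator of CD44 splicing in the epithelial-mesenchymal transition, had a difference of -0.20, and HNRNPU, a nuclear scaffold protein that binds RNA and chromatin, one of -0.15. HNRNPC, which binds uridine tracts and keeps Alu-derived exons out of mRNA, was at -0.086, and HNRNPLL, which directs CD45 splicing in lymphocytes, at -0.082.

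The 2 HNRNP genes that were higher differed in size. HNRNPL, which binds CA repeats, had nearly the same value on both arrays, 11.34 each (0.005). HNRNPK, which binds cytosine-rich stretches, was nearly level too, at 11.44 with compound 1 and 11.48 with the antagomir. Its difference of -0.034 turned to 0.030 with quantile normalization and 0.038 with cyclic loess, and that of HNRNPL was -0.024 after centring. HNRNPCL2, an intronless copy of HNRNPC on chromosome 1, was the 1 member higher by more than 0.32, at 6.54 with compound 1 and 6.08 with the antagomir (1.38-fold, 0.46). Only 0.668% of protein-coding genes had a larger positive difference. Its probes may share sequence with HNRNPC and with other copies, and with HNRNPA1, HNRNPA1L2, HNRNPC and HNRNPCL2 left out, 46 of 52 members were lower with a median of -0.16.

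Of the 28 measured RBM genes 23 were lower, 4 higher and 1 equal, with a median difference of -0.14. Among all protein-coding genes 58.9% were lower and 40.0% higher. The largest differences were those of RBM26 and RBM15. RBM26, which takes part in the nuclear decay of polyadenylated RNA, was at 8.33 with compound 1 and 8.83 with the antagomir (1.41-fold, -0.50), and 0.689% of protein-coding genes had a lower difference. RBM15, which recruits the m6A methyltransferase complex to RNA, was at 8.23 with compound 1 and 8.61 with the antagomir (1.30-fold, -0.38). RBM48, a factor of minor (U12-type) intron splicing, was at 6.33 with compound 1 and 6.68 with the antagomir (1.28-fold, -0.35). These 3 were the RBM genes lower by more than 0.32, and after centring 5 were, with RBM39 at -0.35 and RBM14 at -0.33. With quantile normalization and with cyclic loess 2 were, since RBM15 was then at -0.310 and -0.3217, short of the mark at 0.3219. The count over all protein-coding genes moved too, from 481 of 9584 to 664 of 9587 after centring. It was 364 of 9586 with quantile normalization and 413 of 9585 with cyclic loess.

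RBM39, a U2AF2-related splicing factor and the target of indisulam-type degraders, was at 8.42 with compound 1 and 8.74 with the antagomir, a difference of -0.318 just short of that mark. RBM14, a paraspeckle protein and transcriptional coactivator, was at 8.33 with compound 1 and 8.63 with the antagomir (-0.30). Among the 14 measured RBM genes with roles in the spliceosome or splice site choice 12 were lower, with a median of -0.16. The share lower among all protein-coding genes was 58.9%. The 14 genes differed in size. The lower ones included RBM5, a regulator of exon choice in apoptosis genes, at -0.24, and RBM7, also a subunit of the nuclear exosome targeting complex, at -0.19. RBM22 and RBM25, proteins of the spliceosome, were at -0.15 and -0.12. RBM17, a U2AF-related factor that acts in second-step splicing, was at -0.040, and its sign turned after quantile normalization. RBM24, a muscle splicing factor, was at -0.13.

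The 3 genes tied to ribosome assembly were all lower, as were 58.9% of all protein-coding genes: RBM34 was at -0.21, RBM28 at -0.19 and RBM19 at -0.13. RBM12 (-0.23), RBM12B (-0.27), RBM23 (-0.20), RBM4B (-0.16) and RBM43 (-0.10) were lower as well. RBM12B is the 1 member with 2 clusters, and its second cluster, below the entry level on both arrays, was at 5.28 with compound 1 and 5.16 with the antagomir, opposite in sign to the first, at 6.91 with compound 1 and 7.18 with the antagomir. RBM8A, the exon junction core subunit Y14, was at -0.073, RBM6 at -0.042 and RBM18 at -0.014, and each of these was above 0 after quantile normalization.

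The RBM genes that were not lower are a short group. RBM15B, the relative of RBM15 in the same m6A complex, was at 7.85 with compound 1 and 7.74 with the antagomir (0.10). RBM45, a protein that gathers in inclusions in motor neuron disease, was at 6.86 with compound 1 and 6.77 with the antagomir (0.091), and RBM38, a p53 target that binds the p21 message, at 7.26 with compound 1 and 7.17 with the antagomir (0.089). RBM42, which binds hnRNP K, was at 8.76 with compound 1 and 8.74 with the antagomir (0.027; -0.0029 after centring). RBM33, an adaptor of the m6A demethylase ALKBH5, had exactly 8.20 on both arrays; the table holds 1466 such clusters, and the reason is not known.

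Related genes did not always differ alike. For RBM26 and RBM27, which act in the same decay pathway, the differences were -0.50 and -0.047, a gap of -0.45 that stayed at -0.45 after quantile normalization and was -0.46 after cyclic loess. For RBM15 and RBM15B the gap was -0.49 (-0.47 after either scaling), with the genes on opposite sides of 0. RBM5 and its neighbour RBM6 were apart by -0.20, and HNRNPH1 and HNRNPF by -0.23. By contrast the gap was 0.033 for RBM12 and RBM12B, which widened to 0.076 with quantile normalization and 0.089 with cyclic loess. For HNRNPUL1 and HNRNPUL2 it was -0.031 (-0.046 and -0.0063). These pairs were chosen after the values had been seen, and no gap has a replicate error.

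**Figure D2:**
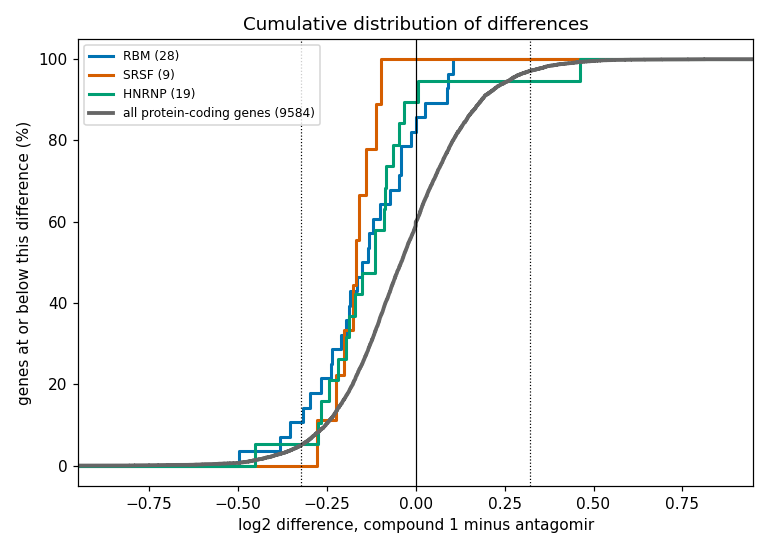
Share of genes (y axis, %) at or below each log2 difference of compound 1 minus antagomir (x axis), for 28 RBM, 9 SRSF and 19 HNRNP genes and all 9584 measured protein-coding genes; dotted lines mark 0.32 on either side. The family curves lie left of the grey curve over most of their course, and the SRSF curve reaches 100% below 0 while the HNRNP curve does so at 0.46, the value of HNRNPCL2.

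Differences ran with level across all genes, so the members were also read within 4 level classes of equal size, cut at the mean level of the 2 arrays. In the lowest class of protein-coding genes the median difference was 0.055 and 38.9% of genes were lower, and in the highest class the median was -0.078 and 73.6% were lower. Most members sat in the upper classes, with 22 in class 3 and 21 in class 4. In class 3, 19 of 22 members were lower with a median of -0.16, against 67.4% of genes and -0.073. In class 4, 20 of 21 members were lower with a median of -0.16, against 73.6% of genes and -0.078. In classes 1 and 2, 3 of 4 members (median -0.11) and 7 of 9 (median -0.13) were lower, against 38.9% and 55.8% of genes. The members were thus lower more often than genes of their class in each of the 4 classes, by a margin with no replicate error. Within the members the difference against level gave r = -0.13 (Spearman's rho -0.097) over 56 genes of the same 2 arrays. Over all 9584 genes it gave -0.22 (rho -0.25). Most members lay in classes 3 and 4, whose medians over all genes were close, so the 2 coefficients cover unlike ranges of level. Whether they differ was not tested. Gene span gave r = -0.13 (rho 0.041) over the members.

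**Figure D3:**
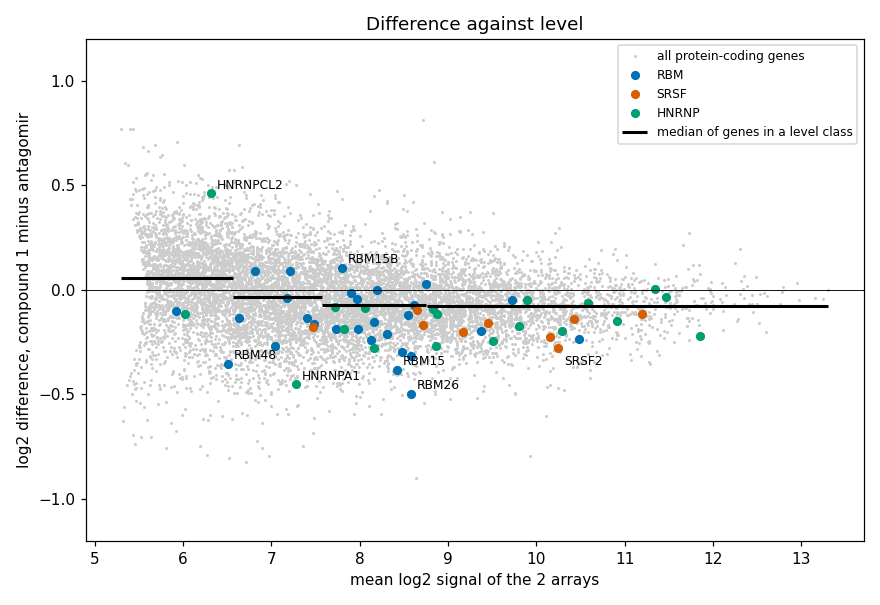
Log2 difference of compound 1 minus antagomir (y axis) against the mean log2 signal of the 2 arrays (x axis) for all measured protein-coding genes (grey) and for RBM, SRSF and HNRNP genes (coloured); black bars give the median of all genes in each level class, from 0.055 in the lowest to -0.078 in the highest. Most coloured points lie below the bar of their class, and HNRNPCL2 stands above all other members.

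The remaining splicing machinery was compared through gene lists without the members. Beside each list stand all measured protein-coding genes, of which 58.9% were lower with a median of -0.041; with quantile normalization 49.5% were lower with a median of 0.0015, and with cyclic loess 51.5% with a median of -0.0063. In the level classes 3 and 4 of the deposited values, 67.4% and 73.6% of all genes were lower. Of 24 measured SR kinases and SR-related proteins (28 listed) 22 were lower (91.7%), with a median of -0.13 that was -0.075 with quantile normalization and -0.087 with cyclic loess. All 7 measured kinases that act on SR proteins were lower: CLK1 was at 7.35 with compound 1 and 7.72 with the antagomir (-0.37), followed by CLK3 (-0.22), SRPK2 (-0.19), CLK2 (-0.17), CLK4 (-0.11), SRPK1 (-0.11) and DYRK1A (-0.025). The sign of DYRK1A turned to 0.045 with quantile normalization and 0.047 with cyclic loess. SRRM1, an SR-related coactivator, was lowest in this list, at 10.40 with compound 1 and 10.82 with the antagomir (-0.42). SCAF4 (0.13), which binds RNA polymerase II, and the U1-associated factor LUC7L2 (0.17) were higher.

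Proteins of the snRNPs and of U2 recognition were lower in 16 of 21 measured genes (39 listed), or 76.2%, a share near that of all genes in level class 4. Their median of -0.12 was -0.050 with quantile normalization and -0.063 with cyclic loess. SNRNP48, a minor spliceosome protein like RBM48, was at 8.13 with compound 1 and 8.49 with the antagomir (-0.37), and SNRPA, a protein of the U1 snRNP, at 10.91 with compound 1 and 11.24 with the antagomir (-0.33). The minor spliceosome proteins SNRNP35 (0.097) and SNRNP25 (0.15) were higher, so this class did not differ in 1 direction. Other spliceosome proteins were lower in 30 of 35 measured genes (45 listed), or 85.7%, with a median of -0.12 that was -0.046 with quantile normalization and -0.058 with cyclic loess. Under each of these scalings 25 of the 35 were lower. The lowest were the second-step factor CDC40 (-0.29) and the minor spliceosome protein PDCD7 (-0.28), and the highest were SLU7 (0.093), also of the second step, and PRPF40B (0.13).

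Other splicing regulators were lower in 21 of 26 measured genes (47 listed), or 80.8%, with a median of -0.12. MBNL3, a muscleblind protein, was at -0.45, the cold-inducible CIRBP at -0.29, NSRP1 at 0.084 and the neuronal regulator NOVA2 at 0.17. With quantile normalization 15 of these 26 were lower (57.7%, against 49.5% of all genes; median -0.051), and with cyclic loess 16 (61.5%, against 51.5%; median -0.048). The list of exon junction and mRNA export factors was lower in 9 of 10 measured genes (14 listed), with a median of -0.20 that was -0.12 with quantile normalization and -0.13 with cyclic loess. Its lowest member, THOC6 (-0.38), belongs to the THO export complex, and MAGOHB (-0.30) is an exon junction core subunit. PYM1, which takes that complex apart, was at -0.030, and the THO subunit THOC5 at 0.017 (-0.012 after centring). Of 13 factors of nonsense-mediated decay only 4 were measured, UPF2 (-0.33), NBAS (-0.22), UPF1 (0.011; -0.018 after centring) and DHX34 (0.038). Their median of -0.10 was -0.031 with quantile normalization and -0.033 with cyclic loess.

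**Figure D4:**
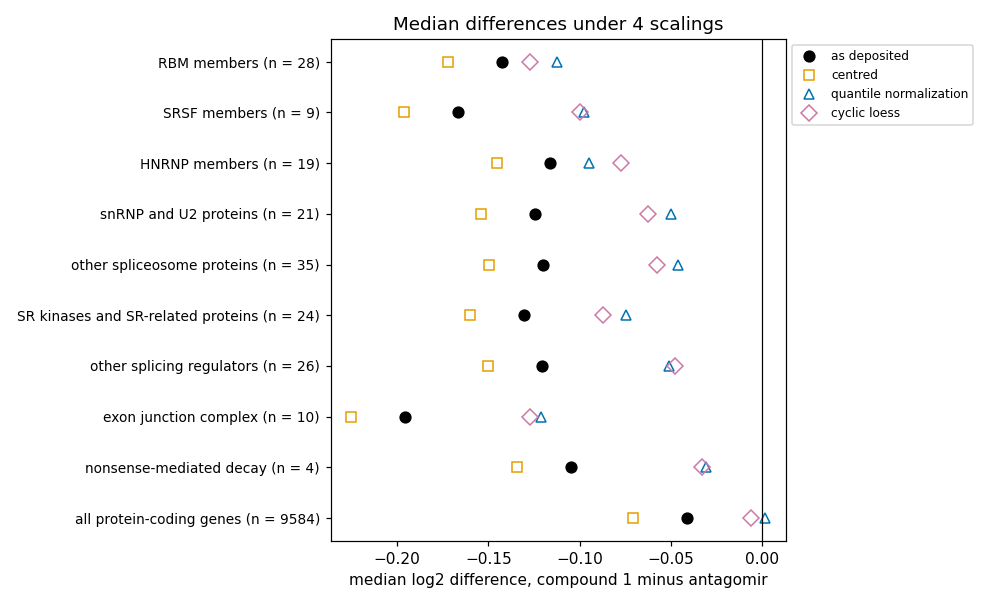
Median log2 difference of compound 1 minus antagomir (x axis) for the 3 member families, 6 lists of other splicing genes and all protein-coding genes, under the deposited values (filled circles), centring (squares), quantile normalization (triangles) and cyclic loess (diamonds). Every family and list has its medians below 0 and below that of all protein-coding genes under the same scaling, which was -0.041, -0.071, 0.0015 and -0.0063.

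Start site windows of the members were read for short factor motifs, and no link between a motif and the differences was tested. RefSeq windows of 300 bases (250 before and 50 after a gene's start, GRCh38.p14) were at hand for 50 of the 56 measured members. With alternative starts there were 64 windows in all, so a gene with several starts counts more than once. SRSF2, HNRNPA1 and RBM48 were among the members without a window. The median base composition of the member windows was 63.8% G and C with 28 CpG pairs, against 64.3% and 24 in 11252 windows of measured protein-coding genes. On either strand, CCAAT, the box bound by NF-Y, was in 53.1% of member windows and 34.2% of all windows. The hypoxia response element core ACGTG was in 32.8% and 24.6%, the cAMP response element core TGACG, which can overlap it, in 37.5% and 30.5%, and the ETS site CCGGAAG in 17.2% and 15.3%. GGGCGG, the GC box, was in 62.5% and 64.6%, the YY1 site AAGATGG in 9.38% and 6.77%, and TATAAA in 9.38% and 6.51%. These shares are descriptions and a match is not shown to be a binding site.

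The windows printed here belong to the gene with the lowest difference in each family among those with a single window, and capitals mark every match to the 7 motifs on either strand. That of RBM26 (chr13:79406206-79406505, minus strand) holds TATAAA and AAGATGG, both in reverse. That of SRSF1 (chr17:58007197-58007496, minus strand) holds TGACG and ACGTG, and that of HNRNPR (chr1:23344235-23344534, minus strand) holds CCAAT in reverse at 2 places. The 3 windows thus have no motif of the 7 in common.
RBM26: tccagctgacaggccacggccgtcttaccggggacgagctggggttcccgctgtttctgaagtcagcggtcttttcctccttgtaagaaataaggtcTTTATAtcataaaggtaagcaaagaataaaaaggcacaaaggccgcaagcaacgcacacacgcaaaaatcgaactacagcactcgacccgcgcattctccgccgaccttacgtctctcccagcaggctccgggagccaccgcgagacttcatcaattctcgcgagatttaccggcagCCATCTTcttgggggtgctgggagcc
SRSF1: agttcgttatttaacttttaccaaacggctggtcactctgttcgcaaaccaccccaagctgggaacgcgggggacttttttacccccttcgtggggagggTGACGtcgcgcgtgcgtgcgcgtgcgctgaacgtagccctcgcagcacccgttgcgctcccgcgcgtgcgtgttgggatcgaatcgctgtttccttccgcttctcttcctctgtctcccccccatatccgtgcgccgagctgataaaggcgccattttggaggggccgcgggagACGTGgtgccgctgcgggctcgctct
HNRNPR: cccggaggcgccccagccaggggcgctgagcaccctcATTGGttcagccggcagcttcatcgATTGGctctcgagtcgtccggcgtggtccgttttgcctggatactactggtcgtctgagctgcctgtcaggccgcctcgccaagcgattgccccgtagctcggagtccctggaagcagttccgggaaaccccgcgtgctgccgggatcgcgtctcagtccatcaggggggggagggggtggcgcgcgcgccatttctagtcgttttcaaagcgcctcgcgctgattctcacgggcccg

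The 9 members below the entry level on both arrays were RBM4, RBM11, RBM20, RBM44, RBM46, RBM47, SRSF12, HNRNPA3 and HNRNPCL1. Of these 6 were higher on the compound 1 array, 2 were lower and RBM11 had the same value on both. In the lowest level class of measured genes 38.9% were lower, with a median of 0.055, but all 9 members lay below that class in mean level. The share among genes below the entry level was not counted. HNRNPA3 came nearest to entry, at 4.70 with compound 1 and 5.44 with the antagomir, a difference of -0.75. RBM43 was the nearest measured member, at 5.87 with compound 1 and 5.97 with the antagomir. No measured member was below the entry level on either array, so none entered through 1 array alone.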

How the data were processed

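RNA of MDA-MB-231 cells was read on 1 Affymetrix array per treatment, from biotin-labelled cRNA made from 5 µg of total RNA, per the labels' protocols. The deposited table gives 1 value per transcript cluster, whose range (0.37 to 14.20 for compound 1, 0.61 to 14.19 for the antagomir) places it as log2 signal; no source used here gives the log base, background correction or normalization. Values were used as deposited. Of 53617 clusters 16098 have a symbol in the probe table, and RefSeq (GRCh38.p14) gave gene types. Where several clusters of a gene entered, that of the highest mean stood for it. Named genes were the 5 lowest and 5 highest RBM genes, the 5 lowest and 3 highest HNRNP genes, every SRSF gene, members differing by over 0.32 or nearest to entry, and the 2 lowest and 2 highest of each other list with all SR kinases; further members are named by role. Members and lists were chosen with earlier results of these data known. Counts and medians are descriptions; calculations were tested on simulated data. The results were recomputed with other filters, cluster choices and folds, and after centring, quantile normalization or cyclic loess. Analyses used Python 3.11.15 (numpy 2.4.6, pandas 2.3.3, matplotlib 3.10.9, scipy 1.17.1) and limma 3.58.1 in R 4.3.3. The number of arrays limits the precision.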

Additional observations from a re-analysis of the deposited data

How the results depend on the processing

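No direction of a family or list median turned under any alternative run. After quantile normalization and cyclic loess the medians shrank, to -0.097 and -0.10 for all members, -0.098 and -0.10 for SRSF genes, -0.11 and -0.13 for RBM genes, -0.095 and -0.078 for HNRNP genes, -0.046 and -0.058 for other spliceosome proteins, and -0.075 and -0.087 for SR kinases and SR-related proteins. The other 4 lists shrank too, to -0.050 and -0.063 for snRNP and U2 proteins, -0.051 and -0.048 for other splicing regulators, -0.12 and -0.13 for exon junction and export factors and -0.031 and -0.033 for nonsense-mediated decay. The members lower by more than 0.32 numbered 6 after centring and 3 after each other scaling. Of all protein-coding genes 664 of 9587 were lower by as much after centring. After quantile normalization 364 of 9586 were, and after cyclic loess 413 of 9585. The members past 0.32, 4 lower and 1 higher, became 0 and 0 at 1.5-fold and 0 and 0 at 2-fold. The count higher was 2 with no filter, 0 with a filter at the 75th percentile and 0 without the genes with near-identical copies, an alternative chosen after seeing the data. Under all 4 scalings 41 of the 56 measured members were lower and 4 higher. The matching count over all protein-coding genes was not made, so the 41 cannot be set against a share of all genes. All 4 scalings rest on the same 2 arrays. Their share lower was 58.9% as deposited, 66.3% when centred, 49.5% with quantile scaling and 51.5% with loess scaling. For the members that share was 87.5%, 92.9%, 73.2% and 76.8% in the same order. Of the 57 genes named by the rule above, without the members named by role, 6 changed sign under at least 1 scaling. They were HNRNPK, HNRNPL, RBM42, DYRK1A, UPF1 and THOC5, each within the spread of genes at its level. Among all 56 measured members the sign turned in 2 after centring, 8 after quantile normalization and 6 after cyclic loess. Cluster choice could change no member, since each has 1 entering cluster. No paired analysis was possible because neither treatment has a second array, and treatment cannot be told apart from pool or hybridisation.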

Other observations

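Clusters named for pseudogene copies and antisense partners of these genes entered no count or median of the members above. Among antisense RNAs, RBM26-AS1, which shares its locus with RBM26, had 1 entering cluster, at 7.01 with compound 1 and 7.19 with the antagomir, and another below the entry level, at 4.29 with compound 1 and 3.66 with the antagomir, with differences of -0.18 and 0.63. RBM15-AS1 (0.18), RBM12B-AS1 (0.19) and RBM5-AS1 (-0.23) were below the entry level on both arrays. No source used here says whether the array separates strands. Among pseudogenes, HNRNPA1P10 was at 11.51 with compound 1 and 11.71 with the antagomir in 1 cluster and at 7.87 with compound 1 and 7.91 with the antagomir in the other, HNRNPA1P33 had a difference of 0.031 and HNRNPKP3 one of 0.12.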
